A study of Mus musculus with 3 samples.

Results

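The homozygous loss of dentin sialophosphoprotein (Dspp-/-, labelled HO) was compared with the wild type (+/+, labelled WT) in the mandibular condyle, the jaw side of the temporomandibular joint. The comparison used 2 of the 3 libraries of the series, WT and HO, and covered the 13026 of 26970 listed genes whose mean over WT, HE and HO was at least 1 FPKM (fragments per kilobase of exon, scaled to the number of mapped fragments in each library). The third library, HE, came from heterozygous Dspp+/- mice, bred by crossing Dspp-/- with C57BL/6 wild-type animals, and was used for its values beside the others and in that mean. All mice were 4 months old, the knockout was global and on a C57BL/6 background, and condyles were taken with the interface of cartilage and subchondral bone intact. For WT and HE the study states that tissue of several animals was pooled into 1 sample. How many animals gave the HO sample, and the sex of the animals, are not given in the sources used here. The labels speak of triplicates, but the table holds 1 value per genotype. There was thus 1 library on each side, no spread between replicates could be measured, and no difference below carries a test. Genotype cannot be told apart from any other difference between the dissected tissues.

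The condyle is a small bone end covered by fibrocartilage. Below its surface, chondrocytes lay down collagen type II and aggrecan, hypertrophic chondrocytes make collagen type X, and osteoblasts, osteocytes and osteoclasts build and remodel the subchondral bone around marrow in which blood cells are formed. Dspp encodes a secreted acidic phosphoprotein best known from dentin, where it is cut into dentin sialoprotein and dentin phosphoprotein, and it stands in a gene cluster with the bone matrix phosphoproteins Spp1, Ibsp, Dmp1 and Mepe.

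The targeted gene, Dspp, was not analysed here, and the labels thus have no check on it. The values of the libraries were scaled to between 20200000 and 23600000 fragments, as read back from the values. Skeletal markers were abundant in WT and in HO, with Col1a1 at 6675 and 3609.7 FPKM. Skeletal muscle RNA was also present, and the summed level of the sarcomere list was 12061 FPKM in WT, 16228 in HE and 13265 in HO. The tooth list was close to 0 (0.329 FPKM in WT, 0.498 in HE and 0.607 in HO), as was the keratinized epithelium list (3.16 FPKM in WT, 2.71 in HE and 2.85 in HO). The libraries differed in the sex of their RNA. Xist, the X-inactivation transcript made in female cells, stood at 0.00551 FPKM in WT, 28.5 in HE and 26.5 in HO. The 4 Y-linked genes Ddx3y, Eif2s3y, Uty and Kdm5d together reached in HO 71.6% of WT (95% interval 68.4 to 74.98), and the other 413 compared X-linked genes had a median log2 ratio of 0.13. Female RNA was thus nearly missing from WT and present in HO, and the sex of the tissue and the genotype cannot be told apart. Mitochondrially encoded genes made up 25.02% of all FPKM in WT, 36.9% in HE and 37.3% in HO. The ribosomal RNA gene Rn18s had 95.1 FPKM in WT, 844 in HE and 227 in HO.

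A log2 ratio below is log2((HO FPKM + 1)/(WT FPKM + 1)), which understates the change of low genes. A fold is the ratio of library-scaled fragments without that pseudocount, and its 95% interval is the exact Clopper-Pearson interval for the split of a gene's fragments between libraries. These intervals cover counting error only, and not the spread between animals or dissections. The call used is a log2 ratio of at least 1 in size, that is 2-fold with the pseudocount. By it, 527 genes were higher in HO, which is 4.05% of the 13026 compared, and 179 were lower, which is 1.37%. The median log2 ratio over all compared genes was 0.01, with 50.7% above 0 and 49.3% below. These shares, 4.05% higher, 1.37% lower, 50.7% above 0 and 49.3% below, are the background for each list count below. The higher genes thus made up 74.6% of those called. That share was 56.9% (421 higher, 319 lower) when values were rescaled to equal totals without globin, immunoglobulin and skeletal muscle genes. This scaling moved the median of all genes to -0.13. Mitochondrially encoded genes stayed in those totals. The sum over all listed genes already differed before any were left out, at 308500 FPKM in WT and 349165 in HO. Mitochondrially encoded genes alone summed to 74039.8 FPKM in WT and 126032 in HO. Which genes the shift comes from was not tested. Gmnn stood just inside the threshold at a log2 ratio of 1.00 and Gm34680 just outside it at 0.998. Among the lower genes Gm49326 stood just inside at -1.004 and Rpl21 just outside at -0.999.

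The genes called higher were mostly low in WT, with a median of 1.20 FPKM in WT and 5.38 in HO, whereas those called lower were at a median of 13.2 FPKM in WT and 4.29 in HO. The filter and the call used these same values, so part of this contrast is set by the rule. Of the 527 higher genes 407 were protein coding, 51 were immunoglobulin variable segments and 8 immunoglobulin constant genes. Of the 179 lower genes 132 were protein coding, 12 were immunoglobulin variable segments and 21 were pseudogenes. On the 4-fold scale 103 genes were higher and 6 lower. The counting interval of the fold excluded 1 for 511 of the 527 and for 173 of the 179. In bulk tissue, fewer cells of a type and less RNA in each cell cannot be told apart, and this holds for every gene group below.

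The promoters of the 3 genes furthest up and the 3 furthest down that have a RefSeq promoter entry are shown, leaving out immunoglobulin segments, because they begin the transcripts at either end of the ranking. Each window is 300 bases around the annotated start (RefSeq, GRCm38.p6), written 5′ to 3′ on the gene's own strand, with Xist at chrX:103483184-103483483, minus strand, Ear1 at chr14:43819590-43819889, minus strand, Ear6 at chr14:51853518-51853817, plus strand, R3hdml at chr2:163492068-163492367, plus strand, Ddit4 at chr10:59951721-59952020, minus strand and Arl4d at chr11:101665291-101665590, plus strand. Capitals mark matches, on either strand, to 6 short motifs: AGATAA for GATA factors, GAGGAA for PU.1, TTGCNNAA for C/EBP factors, TGTGGT for RUNX, ACAAAG for SOX and TATAAA for the TATA box.
Xist: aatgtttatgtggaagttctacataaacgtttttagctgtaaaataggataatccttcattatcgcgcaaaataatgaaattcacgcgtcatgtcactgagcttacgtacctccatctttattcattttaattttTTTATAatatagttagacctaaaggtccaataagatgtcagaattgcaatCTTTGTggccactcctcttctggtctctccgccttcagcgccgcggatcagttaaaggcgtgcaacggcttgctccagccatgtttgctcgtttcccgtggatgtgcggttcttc
Ear1: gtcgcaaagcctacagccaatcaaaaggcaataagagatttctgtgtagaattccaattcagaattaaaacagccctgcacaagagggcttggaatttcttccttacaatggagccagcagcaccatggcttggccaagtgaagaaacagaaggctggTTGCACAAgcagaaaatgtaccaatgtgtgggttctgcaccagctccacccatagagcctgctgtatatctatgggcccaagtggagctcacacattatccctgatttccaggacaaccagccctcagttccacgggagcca
Ear6: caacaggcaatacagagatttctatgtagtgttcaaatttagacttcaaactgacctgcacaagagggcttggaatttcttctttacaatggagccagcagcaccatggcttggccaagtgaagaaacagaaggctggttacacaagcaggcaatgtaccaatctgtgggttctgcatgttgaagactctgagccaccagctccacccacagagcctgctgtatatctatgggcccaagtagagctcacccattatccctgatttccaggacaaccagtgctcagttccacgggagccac
R3hdml: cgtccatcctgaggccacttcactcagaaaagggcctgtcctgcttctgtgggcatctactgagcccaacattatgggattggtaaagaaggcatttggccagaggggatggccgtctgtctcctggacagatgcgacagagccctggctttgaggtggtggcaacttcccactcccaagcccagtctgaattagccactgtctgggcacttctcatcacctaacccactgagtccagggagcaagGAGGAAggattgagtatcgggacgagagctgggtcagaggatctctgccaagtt
Ddit4: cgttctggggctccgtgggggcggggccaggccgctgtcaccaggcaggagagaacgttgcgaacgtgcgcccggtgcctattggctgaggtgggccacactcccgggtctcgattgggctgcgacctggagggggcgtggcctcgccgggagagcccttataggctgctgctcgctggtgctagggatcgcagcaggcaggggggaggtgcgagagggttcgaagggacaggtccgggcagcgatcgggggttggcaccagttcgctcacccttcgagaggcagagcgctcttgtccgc
Arl4d: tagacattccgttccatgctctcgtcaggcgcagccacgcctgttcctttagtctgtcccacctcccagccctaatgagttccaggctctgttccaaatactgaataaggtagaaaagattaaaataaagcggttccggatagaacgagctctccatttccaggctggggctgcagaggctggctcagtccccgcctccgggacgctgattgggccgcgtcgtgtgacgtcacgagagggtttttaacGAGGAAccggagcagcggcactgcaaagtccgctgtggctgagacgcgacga
Ear1 and Ear6, which encode eosinophil ribonucleases, share an identical run of 57 bases in these windows, the longest among the 6. The Xist window held a SOX and a TATA box match, Ear1 a C/EBP match, and R3hdml and Arl4d a PU.1 match each. Ear6 and Ddit4 held none of the 6 motifs. GC content ran from 41.3% in the Xist window to 69% in that of Ddit4, against a median of 61.0% over the 9690 compared genes with an entry. Of the 25 genes furthest up, 15 had an entry. TATAAA was in 6 of those 15 windows, against 7.31% of the compared genes' windows and 14.2% of all 27025 promoters in the table. GAGGAA was in 6 of 15 (26.9% of compared, 28.3% of all), TTGCNNAA in 3 (8.29% and 10.8%), TGTGGT in 3 (12.2% and 16.9%), ACAAAG in 3 (13.2% and 18.7%) and AGATAA in 2 (6.10% and 11.4%). Of the 25 furthest down only 9 had an entry, and these counts in them were 2 for TATAAA, 3 for GAGGAA, 2 for TTGCNNAA, 1 for TGTGGT, 0 for ACAAAG and 1 for AGATAA. A match is a description of the letters and not a bound site.

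The 25 genes furthest up in HO had log2 ratios from 2.84 to 4.77. Xist led, followed by genes of eosinophils, red cells, neutrophils, platelets and antibody-producing cells, and 16 of the 25 stood on a blood cell or B cell list. Hemgn, a nuclear protein of erythroid precursors, was on no list and had 0.0590 FPKM in WT, 14.5 in HE and 13.3 in HO, with 3 fragments in WT and 744 in HO. Car1, the red cell carbonic anhydrase I, had 0.910 FPKM in WT, 22.7 in HE and 20.6 in HO and was 22.6-fold (95% interval 14.9 to 35.9) higher. Ctse, an aspartic protease of red cells and other blood cells, had 0.468 FPKM in WT, 16.3 in HE and 15.3 in HO and was 32.7-fold (95% interval 22.8 to 48.8) higher. Ly6c2, a surface protein of monocytes, granulocytes and their precursors, had 1.97 FPKM in WT, 31.9 in HE and 22.7 in HO. In each of these genes the HE value lay near that of HO and far from that of WT. HE against WT and HO against WT share 1 WT library, so a low value there enters both ratios.

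**Figure D1:**
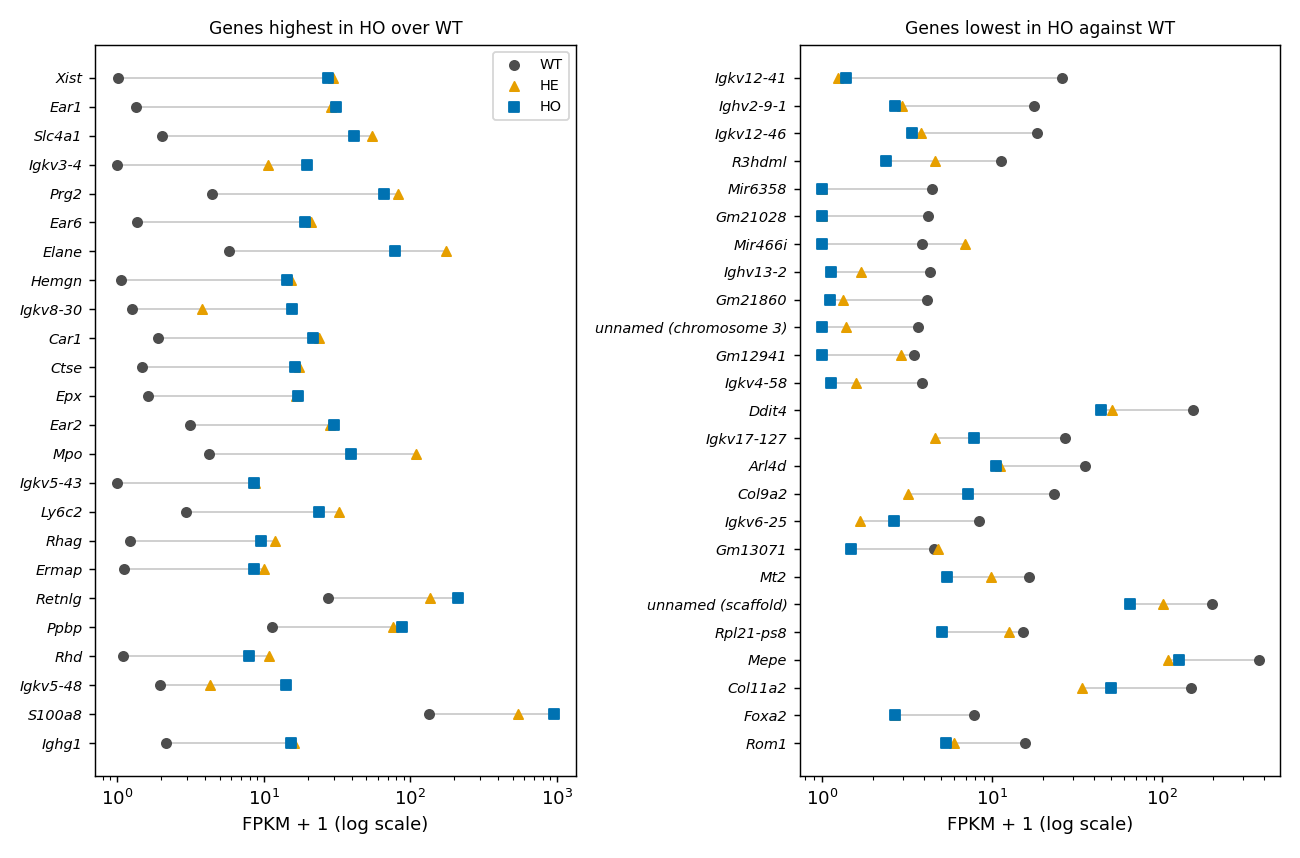
FPKM + 1 on a log axis in the WT (circle), HE (triangle) and HO (square) library for 24 of the 25 genes with the highest log2 ratio of HO to WT and the 25 with the lowest, 1 library per genotype. On the left the HO values lie from 6.99 to 956 FPKM and WT values are lower throughout. On the right 9 of the 25 genes have 5 FPKM or less in WT.

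Eosinophil genes on the mast cell, basophil and eosinophil list were among those furthest up. Of the 10 compared members of that list 7 were at least 2-fold higher, and the median log2 ratio was 2.77 (HE against WT: 3.21). The mast cell genes named below did not share this rise. That median was 1.60 without the filter on low values and 1.37 with a pseudocount of 5, and other lists then had higher ones. The summed level of the list was 14.1 FPKM in WT, 199 in HE and 176 in HO. The eosinophil granule proteins led. Prg2, the major basic protein, had 3.42 FPKM in WT, 81.5 in HE and 65.3 in HO and was 19.1-fold (95% interval 14.7 to 25.3) higher in HO. Epx, eosinophil peroxidase, had 0.614 FPKM in WT, 15.6 in HE and 16.1 in HO and was 26.2-fold (95% interval 18.6 to 38.1) higher. The ribonucleases Ear1, Ear2 and Ear6 had 0.338, 27.7 and 30.2 FPKM, 2.13, 27.5 and 29.0 FPKM and 0.366, 20.03 and 18.1 FPKM in WT, HE and HO. These genes are close copies of each other, with 23.9% of the 100-base stretches of Ear1 found in other genes, so the division of fragments among them is uncertain. Mcpt8, a basophil protease, had 0 fragments in WT and 86 in HO, at least 26.1-fold higher against a floor of 3 fragments per library. Gata2, a transcription factor of mast cells and precursors, was on the other side with 4.26 FPKM in WT, 4.74 in HE and 2.86 in HO. The connective tissue mast cell proteases Cma1 and Tpsb2 averaged under 1 FPKM and had 0.725, 1.20 and 0.660 FPKM and 0.496, 0.478 and 0.536 FPKM.

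Red cell genes were higher in HO as well. In the red cell membrane list 10 of 14 compared members were at least 2-fold higher, none was lower, and the median log2 ratio was 2.07. Slc4a1, the band 3 anion exchanger, had 1.0101 FPKM in WT, 54.2 in HE and 40.5 in HO and was 40.1-fold (95% interval 32.9 to 49.4) higher in HO. The blood group proteins Rhag, Rhd, Kel and Ermap stood at 0.0930 to 0.232 FPKM in WT and at 6.74 to 8.63 FPKM in HO. Not all members were called. Aqp1, a water channel also of endothelium and cartilage, had 235 FPKM in WT, 284 in HE and 261 in HO. The spectrin gene Sptb had 9.88 FPKM in WT, 18.6 in HE and 12.7 in HO. All 5 compared globin genes were over 2-fold higher. Hbb-bs, the adult beta globin, had 425 FPKM in WT, 1794 in HE and 1886 in HO and Hba-a1, the adult alpha globin, 395 FPKM in WT, 1577 in HE and 1344 in HO, but 49.7% and 63.3% of their 100-base stretches occur in other genes, and their sums are safer than the single values. The summed globin level was 895 FPKM in WT, 3627 in HE and 3528 in HO.

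Heme synthesis followed with smaller differences. Of 13 compared genes 12 were above 0 and 3 were 2-fold higher, with a median log2 ratio of 0.52. Among these were Alas2, the erythroid first enzyme of the pathway (7.48, 43.2 and 41.3 FPKM in WT, HE and HO), and the mitochondrial iron importer Slc25a37 (6.63, 31.2 and 26.4 FPKM). The transferrin receptor Tfrc, which most dividing cells use, had 48.5 FPKM in WT, 41.9 in HE and 65.0 in HO. Of 9 genes encoding erythroid transcription factors or the erythropoietin receptor, all were above 0 and 6 were 2-fold higher. Klf1, which switches on adult beta globin, had 0.290 FPKM in WT, 10.6 in HE and 6.30 in HO and Gata1 0.142 FPKM in WT, 4.01 in HE and 2.36 in HO. Epor had 0.695 FPKM in WT, 5.92 in HE and 3.48 in HO. HE exceeded HO in Klf1, Gata1 and Epor.

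Neutrophil genes were higher in HO with 1 exception, Mmp9, in proportions that differed between HE and HO. Primary granule genes are expressed in promyelocytes, secondary and tertiary granule genes at later stages, and receptors and S100 proteins in mature cells. All 7 primary granule genes were 2-fold higher in HO, with a median log2 ratio of 2.35 against 4.10 in HE. Elane, neutrophil elastase, had 4.77 FPKM in WT, 175 in HE and 78.3 in HO and was 16.4-fold (95% interval 13.3 to 20.4) higher in HO. Mpo, myeloperoxidase, had 3.23 FPKM in WT, 109 in HE and 38.3 in HO and was 11.9-fold (95% interval 10.3 to 13.6) higher. Prtn3, Ctsg, Ms4a3 and Prss57 likewise had their highest value in HE, and the summed level of the list was 19.2 FPKM in WT, 438 in HE and 183 in HO. HO was thus between WT and HE for these genes.

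All 12 secondary and tertiary granule genes were also 2-fold higher, with a median log2 ratio of 2.15 against 1.86 in HE. Ngp, the neutrophilic granule protein, had 145 FPKM in WT, 562 in HE and 744 in HO and was 5.12-fold (95% interval 4.94 to 5.31) higher. Mmp8, neutrophil collagenase, had 10.04 FPKM in WT, 39.8 in HE and 67.6 in HO and Ltf, lactoferrin, 28.8 FPKM in WT, 105 in HE and 135 in HO. In the mature neutrophil list 10 of 11 compared members were 2-fold higher. S100a8 and S100a9, the subunits of calprotectin, had 133, 542 and 956 FPKM and 232, 916 and 1339 FPKM in WT, HE and HO, and S100a9 was among the 10 largest gains in FPKM of all genes. Retnlg had 26.6 FPKM in WT, 134 in HE and 211 in HO. The formyl peptide receptor genes Fpr1 and Fpr2 had 1.46, 6.397 and 10.7 FPKM and 2.52, 12.4 and 22.8 FPKM, with the highest value in HO. The exception was Mmp9, also an osteoclast protease, with 552 FPKM in WT, 239 in HE and 371 in HO, which was 0.673 times WT (95% interval 0.663 to 0.683) in HO. Among 9 myeloid transcription factors 2 were 2-fold higher, against 4.05% of all genes. They were Cebpe of late granulocyte precursors (1.63, 10.7 and 7.68 FPKM) and Myb (0.990, 5.35 and 3.74 FPKM). Spi1 had 16.3, 17.8 and 15.7 FPKM and Runx1 6.79, 5.82 and 6.79 FPKM.

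**Figure D2:**
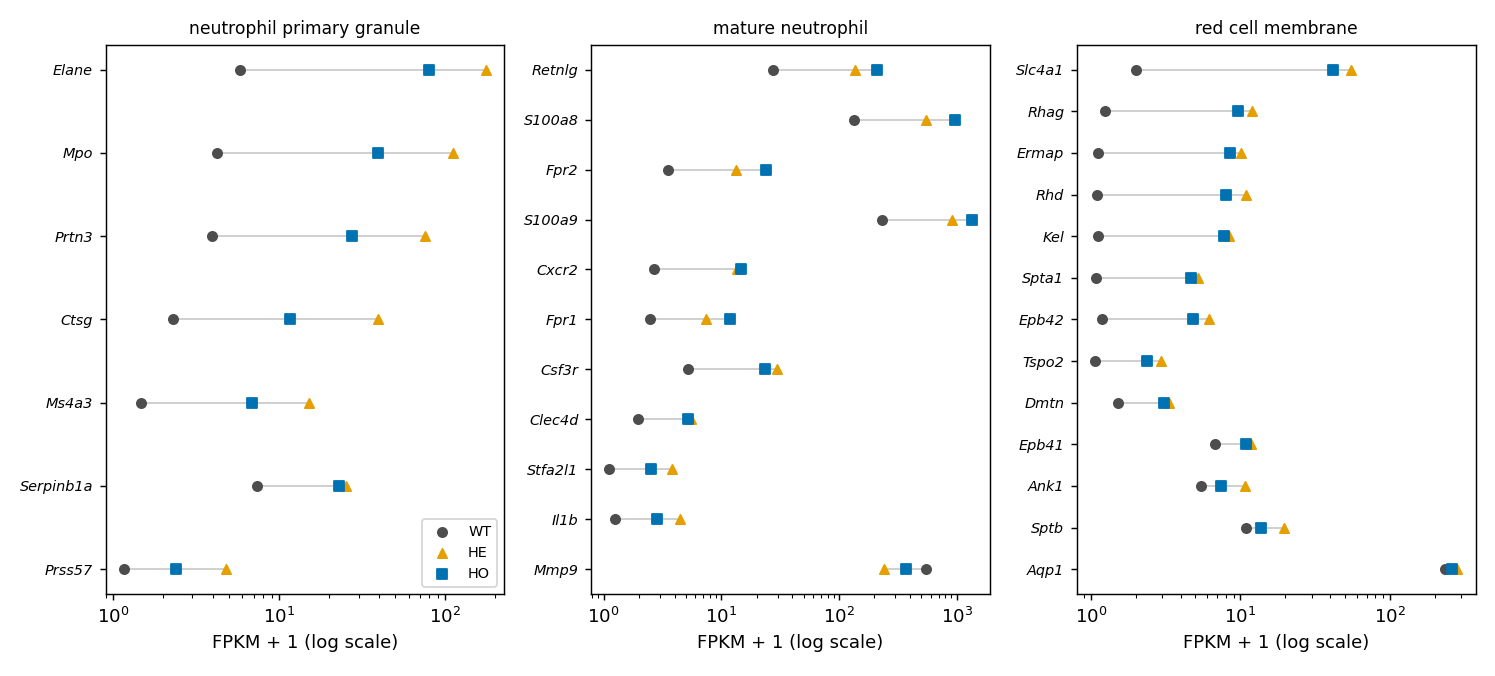
FPKM + 1 on a log axis in the WT, HE and HO library (1 each) for compared members shown of the neutrophil primary granule, mature neutrophil and red cell membrane lists, ordered by the log2 ratio of HO to WT. In the primary granule panel HE lies above HO in all 7 genes, and in the mature neutrophil panel S100a8, S100a9, Retnlg, Fpr1 and Fpr2 are highest in HO, whereas Mmp9 is highest in WT.

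Platelet genes were higher as well, in 10 of 16 compared members by 2-fold and in all 16 above 0, with a median log2 ratio of 1.20. Ppbp, a platelet chemokine precursor, had 10.4 FPKM in WT, 75.6 in HE and 86.7 in HO and was 8.30-fold (95% interval 7.24 to 9.56) higher. Pf4, platelet factor 4, had 9.73 FPKM in WT, 28.5 in HE and 31.6 in HO, and Tubb1, the tubulin of platelets, 1.58 FPKM in WT, 10.8 in HE and 11.2 in HO. The glycoproteins Gp9, Gp5 and Itga2b of the platelet surface had 1.07, 7.16 and 7.04 FPKM, 0.899, 6.57 and 5.34 FPKM and 1.08, 5.62 and 4.42 FPKM. Vwf and Thbs1, which endothelium or connective tissue also makes, had 4.64, 7.41 and 6.36 FPKM and 38.4, 48.9 and 49.3 FPKM.

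B cell genes were higher by a narrower range. In the B cell identity list 9 of 15 compared members were 2-fold higher and all 15 above 0, with log2 ratios from 0.51 to 1.305. Cd79a and Cd79b, the signalling chains of the B cell receptor, had 5.49, 21.6 and 12.9 FPKM and 5.90, 21.8 and 15.4 FPKM in WT, HE and HO, and Pax5, the transcription factor that holds B cell identity, had 1.38, 4.64 and 4.57 FPKM. Among the immunoglobulin constant and plasma cell genes 8 of 13 were 2-fold higher. Ighg1 had 1.14 FPKM in WT, 15.0 in HE and 14.3 in HO and was 12.5-fold (95% interval 9.63 to 16.6) higher. Igkc, the kappa light chain constant region, had 301 FPKM in WT, 841 in HE and 721 in HO, and Ighm, that of IgM, 193 FPKM in WT, 292 in HE and 332 in HO. Ighg2b and Igha had 3.32, 53.6 and 16.7 FPKM and 8.70, 70.8 and 21.8 FPKM, with HE far above HO. Sdc1, a plasma cell marker that many other cells express, had 23.6 FPKM in WT, 7.79 in HE and 12.5 in HO.

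Immunoglobulin variable segments, which differ between individuals by clonal selection, went both ways. Of 103 compared segments 51 were 2-fold higher and 12 lower, with log2 ratios from -4.22 to 4.30 and a median of 0.97, and their summed level was 314 FPKM in WT, 678 in HE and 533 in HO. They made up 4 of the 25 genes furthest up and 7 of the 25 furthest down, including the 3 lowest. Igkv3-4 had 0 fragments in WT, 83 in HE and 150 in HO, and Igkv12-41 had 175, 2 and 3. Genes of early B cells had 5 of 7 compared members above 0, and the sign of their median turned with a higher filter: Il7r and Vpreb3 were 2-fold higher (0.773, 2.72 and 3.85 FPKM and 3.57, 8.97 and 10.2 FPKM), Vpreb1 had 1.40, 0.565 and 1.46 FPKM and Sox4, which many tissues express, 22.1, 14.1 and 15.7 FPKM. T and NK cell genes were scarce, with 4 of the list compared, and the only 2-fold difference was in Nkg7, a cytotoxic granule gene, at 0.432, 13.1 and 5.46 FPKM.

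Cell division genes were higher in HO too. Of 19 mitosis genes all were above 0 and 12 were 2-fold higher, with a median log2 ratio of 1.10 (1.20 in HE). Mki67, the Ki-67 proliferation marker, had 4.34 FPKM in WT, 26.7 in HE and 30.5 in HO and was 7.03-fold (95% interval 6.55 to 7.55) higher. Top2a, topoisomerase II alpha, had 2.92 FPKM in WT, 13.2 in HE and 13.8 in HO. Of 14 compared replication genes all were above 0 and 7 were 2-fold higher. Rrm2, a subunit of ribonucleotide reductase, had 2.82 FPKM in WT, 15.9 in HE and 16.3 in HO and was 5.77-fold (95% interval 4.88 to 6.87) higher, and the helicase subunits Mcm2 to Mcm7 ranged in log2 ratio from 0.70 to 1.17. Which cells divided was not measured.

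The largest gains in FPKM, as opposed to ratio, fell to mitochondrial transcripts. The 10 largest were 7 mitochondrially encoded genes together with Acta1, Hbb-bs and S100a9. mt-Co1, a subunit of cytochrome c oxidase, had 22314 FPKM in WT, 38421 in HE and 35989 in HO, and mt-Cytb of complex III 13625 FPKM in WT, 21793 in HE and 22695 in HO. Over the 13 genes 11 were above 0 and 2 were called, mt-Co2 (166, 312 and 499 FPKM) and mt-Co3 (157, 318 and 459.8 FPKM). In mt-Co2 99.5% and in mt-Co3 99.9% of the 100-base stretches occur in other listed genes, so their fragments cannot be placed with confidence. The summed level was 74039.8 FPKM in WT, 126596 in HE and 126032 in HO. FPKM is scaled to the mapped fragments of a library, so a larger mitochondrial share can lower the values of other genes. Without mitochondrially encoded genes in the total, 581 genes were higher and 141 lower, and the medians of the blood and skeletal lists named here kept their sign. The median log2 ratio of all compared genes was then 0.07, against 0.01 with them.

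**Figure D3:**
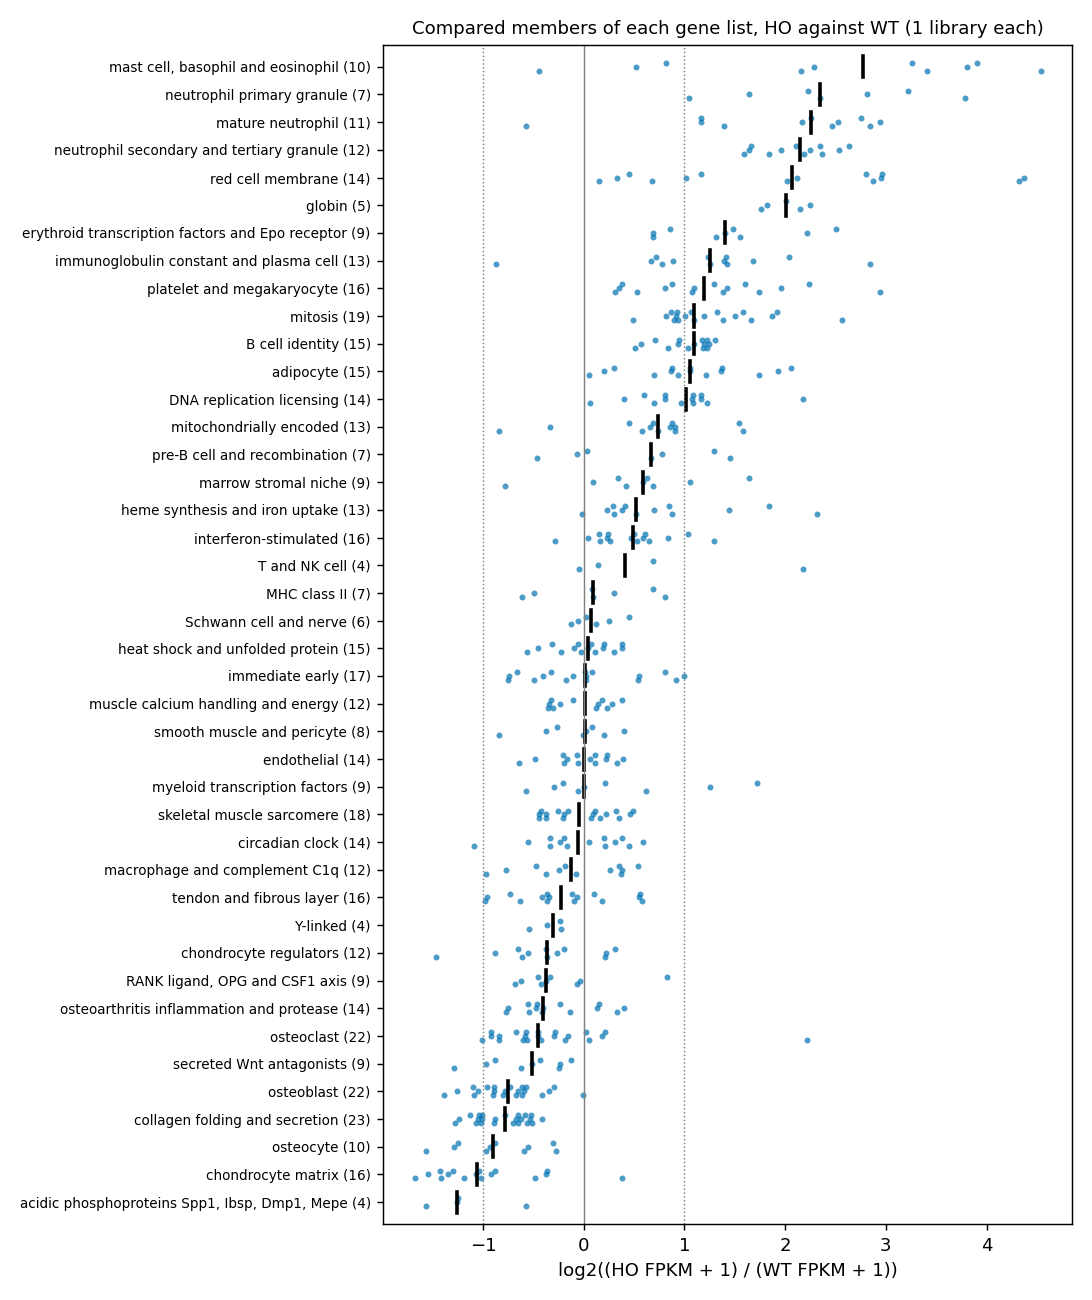
Log2 ratio of HO to WT (FPKM with a pseudocount of 1, 1 library each) for the compared members of 42 gene lists, 1 point per gene, with the list median as a black bar and the number of members in brackets. Dotted lines mark 2-fold. Lists of blood-forming cells lie at the top with medians up to 2.77, and the lists of bone and cartilage matrix at the bottom with medians down to -1.26.

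The genes furthest down in HO were a mixed group. Among the 25 were 7 immunoglobulin variable segments, several short or repeated genes with few fragments, and named protein-coding genes of which 3 stood on a skeletal list. R3hdml, a gene for a predicted secreted protein of the CAP superfamily, had 10.3 FPKM in WT, 3.60 in HE and 1.40 in HO and was 0.135 times WT (95% interval 0.0913 to 0.194). Ddit4, a stress-induced inhibitor of mTORC1, had 150.1 FPKM in WT, 49.8 in HE and 43.0 in HO and was 0.287 times WT (95% interval 0.271 to 0.303). Arl4d, a small GTPase of the ARF family, had 34.2 FPKM in WT, 10.1 in HE and 9.53 in HO and was 0.278 times WT (95% interval 0.243 to 0.317). In these 3 genes HE was also well under WT. Mt2, a metallothionein, had 15.5 FPKM in WT, 8.93 in HE and 4.43 in HO, but 73.5% of its annotated exon overlaps another gene. The forkhead factor gene Foxa2 had 6.86 FPKM in WT, 1.68 in HE and 1.69 in HO, and Rom1, known from photoreceptors, 14.6 FPKM in WT, 4.997 in HE and 4.35 in HO. Mir6358, Gm21028 and Mir466i had 7, 8 and 7 fragments in WT and 0 in HO, which is too few to place them. The largest losses in FPKM were different genes, namely Col1a1, Sparc, Col1a2, Ibsp, Spp1, Gpx3, Bglap, Col2a1, Chad and Fmod, and 9 of these 10 encode extracellular proteins on the bone, cartilage and tendon lists below. Gpx3, the extracellular glutathione peroxidase, is the other and had 1649 FPKM in WT, 886 in HE and 1069.6 in HO.

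Osteoblast genes were lower in HO, by less than 2-fold in most, with Omd level with WT. All 22 compared members were under 0, where 49.3% of all genes were, and 5 were called. The highest ratio was -0.003, too close to 0 for its sign to hold under every scaling. The median log2 ratio was -0.75 (-1.55 in HE). Col1a1 and Col1a2, the chains of collagen type I, had 6675, 1719 and 3609.7 FPKM and 2779.9, 699.8 and 1496 FPKM in WT, HE and HO, and Col1a1 was 0.541 times WT (95% interval 0.539 to 0.543). Sparc, osteonectin, had 4675 FPKM in WT, 1245 in HE and 2401 in HO. The 5 called genes were Smpd3, a sphingomyelinase needed for mineralization (49.1, 10.7 and 18.1 FPKM), Ibsp, bone sialoprotein (1643, 433 and 685 FPKM), the membrane protein Ifitm5 (21.8, 6.81 and 9.69 FPKM), the parathyroid hormone receptor Pth1r (164, 60.5 and 76.6 FPKM) and Alpl, tissue-nonspecific alkaline phosphatase (203, 70.8 and 97.8 FPKM). Of the transcription factors that direct osteoblasts, Runx2 had 17.7, 9.90 and 13.8 FPKM and Sp7 65.4, 23.6 and 34.6 FPKM. Bglap, osteocalcin, had 1353 FPKM in WT, 386 in HE and 778 in HO, with 38.7% of its 100-base stretches shared with its copies. Omd and Postn stood closest to WT, at 174, 113 and 174 FPKM and 431, 145 and 351 FPKM. In each of these HO lay between HE and WT.

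Osteocyte genes were also lower, 10 of 10 under 0 and 3 called, with a median log2 ratio of -0.90 (-0.95 in HE). Sost, sclerostin, the Wnt inhibitor made by osteocytes, had 272 FPKM in WT, 167 in HE and 111 in HO and was 0.409 times WT (95% interval 0.396 to 0.423), and here HO was below HE. Dmp1, dentin matrix protein 1, had 191 FPKM in WT, 70.4 in HE and 79.5 in HO and was 0.417 times WT (95% interval 0.403 to 0.432). Mepe, matrix extracellular phosphoglycoprotein, had 369 FPKM in WT, 107 in HE and 124 in HO and was 0.337 times WT (95% interval 0.325 to 0.348). The endopeptidase Phex had 52.4 FPKM in WT, 18.8 in HE and 34.4 in HO and the secretory kinase Fam20c, which phosphorylates these acidic proteins, 18.3 FPKM in WT, 8.399 in HE and 9.16 in HO. Fgf23 was under 1 FPKM in all libraries. The acidic phosphoproteins Spp1, Ibsp, Dmp1 and Mepe, the neighbours of Dspp, were all lower and 3 were called. Spp1, osteopontin, also made by macrophages and other cells, was the fourth, with 2474 FPKM in WT, 814 in HE and 1661 in HO and a level 0.671 times WT (95% interval 0.664 to 0.678).

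Cartilage matrix genes were lower in 15 of 16 compared members and called in 10, with a median log2 ratio of -1.05 (-2.06 in HE). Col2a1, collagen type II, had 761 FPKM in WT, 94.2 in HE and 308 in HO and was 0.405 times WT (95% interval 0.401 to 0.409). Acan, aggrecan, had 84.1 FPKM in WT, 20.4 in HE and 40.4 in HO and was 0.481 times WT (95% interval 0.467 to 0.496). Col10a1, the collagen of hypertrophic chondrocytes, had 246 FPKM in WT, 17.3 in HE and 107 in HO and was 0.436 times WT (95% interval 0.425 to 0.449). In these 3, HE lay further from WT than HO did. The minor collagens Col9a2, Col9a3 and Col11a2, which cover or nucleate collagen II fibrils, were at 0.282, 0.360 and 0.337 times WT. Cnmd, chondromodulin, had 6.94 FPKM in WT, 0.138 in HE and 1.98 in HO and was 0.284 times WT (95% interval 0.219 to 0.366). Comp, Chad and Cytl1 differed from that order, with HO below HE at 462, 312 and 227 FPKM, 962, 643 and 523 FPKM and 94.6, 88.6 and 44.5 FPKM. Prg4, the lubricin of the joint surface, was the exception in direction, with 43.8 FPKM in WT, 73.4 in HE and 57.2 in HO.

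Regulators of chondrocytes showed smaller differences than the matrix. Of 12 compared 9 were under 0 and only Ihh was called. Ihh, Indian hedgehog, the signal of prehypertrophic chondrocytes, had 17.5 FPKM in WT, 4.77 in HE and 5.71 in HO and was 0.326 times WT (95% interval 0.289 to 0.366). Sox9, the factor that drives Col2a1, had 11.1 FPKM in WT, 5.45 in HE and 6.90 in HO, and its partners Sox5 and Sox6 had 2.37, 1.36 and 1.81 FPKM and 5.63, 7.06 and 7.21 FPKM. Fgfr3, which restrains chondrocyte growth, had 11.6 FPKM in WT, 5.89 in HE and 5.86 in HO, and Pthlh 2.20 FPKM in WT, 2.90 in HE and 2.69 in HO.

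**Figure D4:**
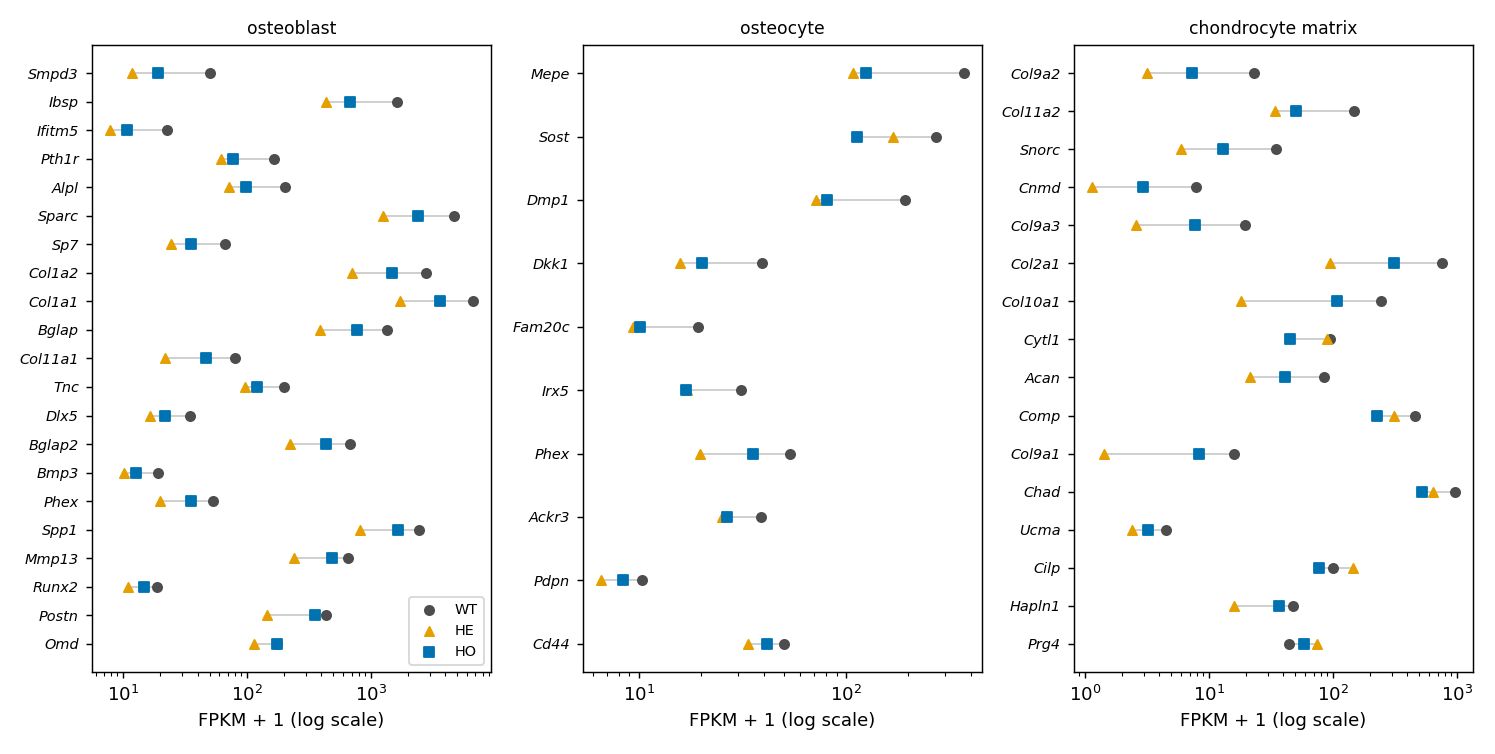
FPKM + 1 on a log axis in the WT, HE and HO library (1 each) for compared members shown of the osteoblast, osteocyte and chondrocyte matrix lists, ordered by the log2 ratio of HO to WT. WT is the highest of the 3 libraries in all but Prg4 and Cilp of the cartilage panel, and HE is the lowest in most genes, with Sost, Comp, Chad and Cytl1 among those lowest in HO.

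The machinery for folding, crosslinking and secreting collagen was lower in all 23 compared members, and 9 were called, with a median log2 ratio of -0.78. Serpinh1, the collagen chaperone HSP47, had 428 FPKM in WT, 160.3 in HE and 196 in HO and was 0.457 times WT (95% interval 0.447 to 0.468). Creb3l1, a transcription factor of collagen secretion in osteoblasts, had 51.9 FPKM in WT, 17.1 in HE and 21.4 in HO. The prolyl 3-hydroxylase P3h1 and its partner Crtap had 32.9, 11.1 and 15.4 FPKM and 80.2, 38.8 and 46.4 FPKM, and the crosslinking oxidases Lox and Loxl4 129, 39.4 and 83.6 FPKM and 32.5, 7.58 and 12.9 FPKM. The chaperones of the general unfolded protein response did not follow: Hspa5 had 58.9, 70.9 and 57.8 FPKM and Hsp90b1 55.6, 59.9 and 53.5 FPKM, and the heat shock and unfolded protein list had 8 of 15 above 0 and no call.

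Osteoclast genes were under 0 in 17 of 22 compared members, where 49.3% of all genes were, with a median log2 ratio of -0.46. Calls were 1 higher and 1 lower, against 4.05% and 1.37% of all genes. Ctsk, cathepsin K, which digests bone collagen, had 863 FPKM in WT, 279 in HE and 481 in HO and was 0.558 times WT (95% interval 0.547 to 0.569). Acp5, tartrate-resistant acid phosphatase, had 756 FPKM in WT, 248 in HE and 399 in HO and was 0.528 times WT (95% interval 0.518 to 0.537). The fusion protein Ocstamp was called lower, with 9.02 FPKM in WT, 2.91 in HE and 3.97 in HO, and Nfatc1, the transcription factor that drives osteoclast formation, had 24.5 FPKM in WT, 17.5 in HE and 21.9 in HO. The member called higher was Car2, carbonic anhydrase II, with 9.83 FPKM in WT, 65.4 in HE and 49.4 in HO, a gene that red cells also express in quantity. On the signalling axis, Tnfsf11, the RANK ligand, had 14.3 FPKM in WT, 4.85 in HE and 8.56 in HO, Tnfrsf11b, its decoy receptor osteoprotegerin, 23.4 FPKM in WT, 13.9 in HE and 14.8 in HO, and Csf1 14.2 FPKM in WT, 10.5 in HE and 10.4 in HO. None of the 9 genes of that axis was called, and 8 were under 0. Fcer1g, the member above 0 and an adaptor also of mast cells and granulocytes, had 18.9 FPKM in WT, 32.1 in HE and 34.3 in HO.

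Secreted Wnt antagonists were under 0 in 9 of 9 compared members, with a median log2 ratio of -0.52, and Sost was the only call. Dkk1 had 38.5 FPKM in WT, 14.9 in HE and 19.2 in HO, and Wif1, Wnt inhibitory factor 1, 234 FPKM in WT, 63.5 in HE and 126 in HO. Genes of tendon and the fibrous layer were mixed, with 5 of 16 above 0 and no call. Scx, the tendon factor scleraxis, had 10.1 FPKM in WT, 5.32 in HE and 4.66 in HO, Fmod, fibromodulin, 1032 FPKM in WT, 621 in HE and 621 in HO, Dcn, decorin, 308 FPKM in WT, 238 in HE and 295 in HO, and Ogn, osteoglycin, 73.4 FPKM in WT, 79.7 in HE and 110.3 in HO.

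The lower skeletal lists and the higher blood lists were seen in the same 2 libraries. Over the blood side, the summed level of the mature neutrophil list was 954 FPKM in WT, 1901 in HE and 2954 in HO, of the red cell membrane list 258 FPKM in WT, 455 in HE and 397 in HO and of the B cell identity list 40.9 FPKM in WT, 130.4 in HE and 100.5 in HO. Over the skeletal side, the summed level of the osteoblast list was 22465 FPKM in WT, 6365 in HE and 12577 in HO and of the chondrocyte matrix list 3047 FPKM in WT, 1451 in HE and 1506 in HO. Over these 5 lists, Epyc and Mia of the cartilage list were at 0 in HO and low in every library, and Stfa2 of the neutrophil list was at 0 in WT. The part that a different share of marrow in the dissected tissue has in either side was not tested.

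Adipocyte genes were higher in HO in all 15 compared members, and 8 were called, with a median log2 ratio of 1.05, whereas their median against WT was -0.14 in HE. Adipoq, adiponectin, had 5.795 FPKM in WT, 6.47 in HE and 13.1 in HO and was 2.27-fold (95% interval 1.89 to 2.74) higher in HO. Cfd, adipsin, had 23.5 FPKM in WT, 8.50 in HE and 62.0 in HO and was 2.64-fold (95% interval 2.36 to 2.95) higher. The lipid droplet proteins Plin1 and Cidec had 1.41, 0.501 and 4.61 FPKM and 2.26, 1.62 and 9.90 FPKM in WT, HE and HO. Pparg, the factor that directs fat cell formation, had 2.02 FPKM in WT, 3.31 in HE and 5.28 in HO, and the enzymes Scd1 and Pck1 had 32.1, 19.7 and 84.5 FPKM and 0.864, 0.692 and 6.12 FPKM. Ucp1, the uncoupling protein of brown fat, had 0.423 FPKM in WT, 0.104 in HE and 4.92 in HO, with 14, 4 and 179 fragments. In 7 of these 8 genes, all but Pparg, the HE value was close to or below that of WT. Fabp4, Lpl and Dgat2, which marrow stroma, endothelium or muscle also express, had 21.8, 32.3 and 35.9 FPKM, 49.98, 119.8 and 96.5 FPKM and 12.6, 24.4 and 23.9 FPKM, and did not separate HO from HE in that way. Among all genes called against WT, the 5 furthest above HE in HO were Cyp2e1, the 5S ribosomal RNA gene copy n-R5s204, Cfd, Col10a1 and Gm22772. Cyp2e1, a cytochrome P450 of liver that adipocytes also express, had 2.56 FPKM in WT, 1.26 in HE and 24.4 in HO and was 9.52-fold (95% interval 7.84 to 11.7) higher than WT. n-R5s204 and Gm22772 had 14 and 12 fragments in HO and 0 and 2 in WT. The 5 furthest below HE were the immunoglobulin segments Ighv1-7, Igkv6-14 and Igkv1-110 and the short genes Mir466i and Gm22781. Whether fat was in or beside the dissected condyle was not tested.

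**Figure D5:**
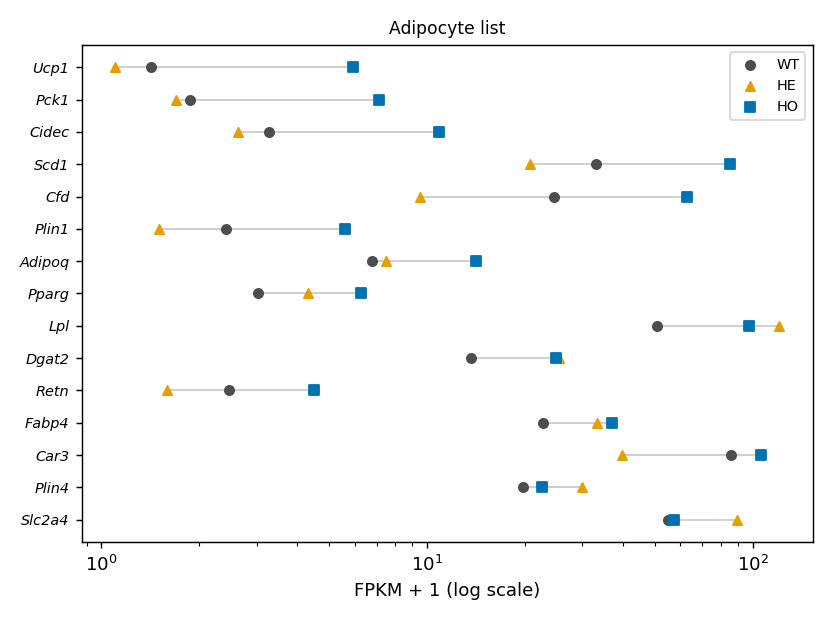
FPKM + 1 on a log axis in the WT, HE and HO library (1 each) for the 15 compared members of the adipocyte list, ordered by the log2 ratio of HO to WT. HO is the highest library in Ucp1, Pck1, Cidec, Scd1, Cfd, Plin1, Adipoq, Pparg, Retn, Fabp4 and Car3, while HE is highest in Lpl, Dgat2, Plin4 and Slc2a4.

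Genes of the marrow stromal niche were above 0 in 8 of 9, with Hp and Adipoq called, which stand on the granule and the adipocyte list too. Cxcl12, the chemokine that holds blood stem cells in marrow, had 41.3 FPKM in WT, 67.5 in HE and 55.6 in HO, Kitl, stem cell factor, 13.2 FPKM in WT, 21.9 in HE and 21.9 in HO and Lepr 11.47 FPKM in WT, 10.1 in HE and 14.8 in HO, whereas Foxc1 had 15.5 FPKM in WT, 8.73 in HE and 8.57 in HO. Salivary gland genes were scarce. Bpifa2, a parotid secretory protein, had 0.0738 FPKM in WT, 0.211 in HE and 3.71 in HO, with 3 fragments in WT and 166 in HO, and Pip and Prol1 had 0 fragments in WT and 17 and 13 in HO. The summed level of the salivary list was 3.78 FPKM in WT, 8.77 in HE and 13.2 in HO, and its part in any other difference was not tested.

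Several lists had medians near 0 and almost no calls, and for them no direction is given because their sign turned under at least 1 scaling or filter. The endothelial list had log2 ratios from -0.64 to 0.39 and no call. Pecam1 had 31.2, 38.6 and 37.0 FPKM in WT, HE and HO, and Plvap was its lowest member at 61.4, 28.8 and 39.0 FPKM. The smooth muscle and pericyte list had no call. Both skeletal muscle lists had no call either. Myh4, the myosin of fast fibres, had 124 FPKM in WT, 18.2 in HE and 111 in HO, and the actin gene Acta1 5609 FPKM in WT, 8162 in HE and 7150.1 in HO, so HO was nearer to WT than HE was in the first and between them in the second. Nerve sheath genes, MHC class II genes and immediate early genes had no call. Fos and Junb, which respond within minutes to handling or signals, had 5.08, 8.64 and 11.1 FPKM and 24.0, 16.5 and 13.9 FPKM. In the circadian list only Npas2 was called (6.46, 7.53 and 2.51 FPKM), and Dbp, a clock output that swings widely over the day, had 19.6, 2.18 and 17.4 FPKM.

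Macrophage genes had 7 of 12 under 0, a median log2 ratio of -0.13 and no call. Cd68 had 50.4, 34.7 and 44.3 FPKM, Adgre1 5.90, 8.30 and 7.83 FPKM and C1qa 30.4, 27.7 and 17.5 FPKM. Apoe, which macrophages, fat and chondrocytes express, was the lowest at 144, 105 and 73.0 FPKM. Interferon-stimulated genes were above 0 in 15 of 16, where 50.7% of all genes were. Of these 2 were called, against 4.05% of all genes, namely Rsad2 (4.10, 10.8 and 11.496 FPKM) and Oas3 (0.133, 1.70 and 1.32 FPKM). The proteases and inflammatory mediators known from osteoarthritis had 10 of 14 under 0, where 49.3% of all genes were, and no call. Their median log2 ratio was -0.41, but -0.11 without the filter on low values. Mmp13, the collagenase of hypertrophic cartilage and bone, had 649 FPKM in WT, 239.9 in HE and 487 in HO, the aggrecanases Adamts4 and Adamts5 3.61, 1.17 and 2.31 FPKM and 8.18, 7.64 and 7.36 FPKM, and Timp1 57.4 FPKM in WT, 19.6 in HE and 33.6 in HO. Tnf, Il6, Il1a, Cxcl1 and Ccl2 averaged under 1 FPKM and were not compared.

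Ribosomal protein genes, chosen by symbol, were under 0 in 62 of 78 compared, where 49.3% of all genes were, with a median log2 ratio of -0.18. None was called higher and 2 were called lower, against 1.37% of all genes. The 2 called were Rps27a (94.6, 79.7 and 32.1 FPKM) and Rpl7a (76.6, 30.4 and 31.0 FPKM), and 20.8% and 28.1% of their 100-base stretches occur in other genes such as pseudogene copies. Ratios also followed exon length. Protein-coding genes in the shortest of 10 classes of equal size had a median log2 ratio of -0.12 and those in the longest 0.11. The shortest class held 95 genes called higher and 48 called lower, and the longest 14 and 0. When the ratios of the 12983 genes of any type with a known length were centred within 10 length classes of their own, 519 were higher and 156 lower.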

How the data were processed

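Poly(A)-selected RNA of mouse condyles was sequenced, and 1 table with 1 value per gene for WT, HE and HO was used. The submitters' processing notes name FastQC 0.11.5, HISAT2 2.1.0, StringTie 1.3.3b and DESeq 1.28.0, and a human build (hg38). The gene positions in the table are mouse, and their build is not given in the sources used here. The values deposited by the authors were read as FPKM from the values themselves. Exon lengths came from the GENCODE M21 annotation. For each library 1 step, the worth of 1 fragment, was fitted to value times length. Of the values under 100 fragments, 98.9% then gave a whole number of fragments (tolerance 0.05). Strand is not stated, so overlapping genes cannot be told apart.

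Ratios were log2((HO + 1)/(WT + 1)) over genes with a mean of WT, HE and HO of at least 1 FPKM, which lets a gene pass through HE alone. Called means 2-fold on that scale. Intervals are exact Clopper-Pearson at 95%, and 0 fragments was set to a floor of 3 for a bound. Without replicates no test was run. The genes, the members of the 45 lists and the comparisons were chosen with earlier results of these data known. Named genes are the 25 largest rises and falls, the 10 largest gains and losses of FPKM, up to 4 members of each list (all in lists of 8 or fewer), the 5 highest and lowest over HE, Xist and Y-linked genes, and further genes, including further list members, chosen after their values were seen. Dspp and a few other genes are not reported here by name, though list counts and sums include the latter.

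Alternatives comprised 11 planned ones and 2 added after seeing the data (centring by gene length and a minimum of 20 fragments). Promoters are RefSeq, GRCm38.p6. Computations ran in Python 3.11.15 with scipy 1.17.1 for intervals, pandas 2.3.3 and numpy 2.4.6 for tables and matplotlib 3.10.9 for plots. The counting intervals and calls were tested on simulated data that held counting error only, so spread between animals lay outside that test.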

Additional observations from a re-analysis of the deposited data

How the results depend on the processing

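Counts of genes called depended on the settings more than directions did. With a pseudocount of 0.1, 836 genes were higher and 363 lower (69.7% higher), and with 5 they were 136 and 45. With a mean of at least 5 FPKM there were 228 and 110 (67.5%). At 1.5-fold they were 1152 and 1070 (51.8%), and at 4-fold 103 and 6 (94.5%). Rescaling without mitochondrially encoded genes gave 80.5% higher. Rescaling without globin, immunoglobulin and muscle genes, with mitochondrially encoded genes kept in the total, gave 319 lower and 56.9% higher. The median of all genes was then at -0.13. The other alternatives kept both counts within 1.5 times. List medians of low genes moved by over 1.5 times with the pseudocount or filter, without a change of sign. With a pseudocount of 5 they were 1.32 for primary granule, 1.48 for mature neutrophil, 1.37 for mast cell and eosinophil, 0.77 for red cell membrane, 0.57 for erythroid factors, 0.52 for platelet, 0.55 for B cell identity, 0.81 for immunoglobulin constant, 0.53 for replication, 0.55 for mitosis, 0.19 for interferon and 0.39 for marrow niche genes. With a pseudocount of 0.1 they were 4.36 for mast cell and eosinophil, 4.08 for red cell membrane and 2.17 for erythroid factors. Without a filter the mast cell and eosinophil median was 1.60, and with a mean of at least 5 FPKM those of erythroid factors and mitosis were 0.86 and 1.73. The macrophage median (-0.13) ranged from -0.29 to -0.05 over the scalings. The median of the osteoarthritis list (-0.41) was -0.11 without a filter and -0.58 when rescaled without globin, immunoglobulin and muscle genes.

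List medians that changed sign all lay near 0 except that of the pre-B cell list. With a pseudocount of 5 the endothelial median was -0.0045. Without a filter the sarcomere median was 0.036. With a mean of at least 5 FPKM, medians were -0.025 for myeloid transcription factors, -0.062 for pre-B cells (0.67 otherwise), -0.0061 for smooth muscle, 0.072 for the sarcomere, -0.015 for Schwann cells and -0.10 for immediate early genes. Median-ratio scaling gave -0.0052 for myeloid transcription factors and -0.0044 for endothelium. Without mitochondrially encoded genes, the sarcomere was at 0.038 and the circadian clock at 0.019. Without globin, immunoglobulin and muscle genes, medians were -0.15 for myeloid transcription factors, -0.064 for MHC class II, -0.15 for endothelium, -0.15 for smooth muscle, -0.16 for muscle calcium handling, -0.047 for Schwann cells, -0.15 for immediate early genes and -0.12 for heat shock. Centring by gene length gave -0.012 for smooth muscle and -0.0022 for muscle calcium handling. The cause was not tested.

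No paired analysis was possible because each genotype had 1 library and no replicate numbers. Leaving out a replicate was impossible for the same reason, so no value here has an error that covers animals, pools or dissections. The intervals printed cover counting only, and genes with few fragments in WT, such as Xist or Rhd, have folds that rest on those few.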

Other observations

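The genes below stood on no list and were chosen after their values were seen, so they are given as values. Ptprc, the common leukocyte antigen CD45, had 2.43 FPKM in WT, 7.92 in HE and 8.90 in HO and was 3.66-fold (95% interval 3.41 to 3.95) higher. Lyz2, lysozyme of macrophages and granulocytes, had 207 FPKM in WT, 588 in HE and 558 in HO and was 2.70-fold (95% interval 2.62 to 2.78) higher. The receptors Ccr2 of monocytes and Cxcr4 had 1.54, 10.1 and 7.59 FPKM and 9.21, 28.0 and 28.3 FPKM in WT, HE and HO. Alox5ap and Alox5, of leukotriene synthesis, had 3.34, 17.5 and 17.0 FPKM and 1.54, 4.90 and 5.90 FPKM, and Alox15, which eosinophils express, had 0.0201, 6.44 and 5.29 FPKM, with 1 fragment in WT. Trim10, Cldn13 and Slc14a1, known from erythroid cells, had 0.374, 8.81 and 7.41 FPKM, 0.0926, 7.30 and 4.84 FPKM and 0.556, 5.15 and 4.87 FPKM.

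Fasn, fatty acid synthase, Elovl6, a fatty acid elongase, and Cidea, a lipid droplet protein of brown fat, had 8.69, 5.30 and 18.4 FPKM, 1.34, 1.46 and 3.82 FPKM and 0.798, 0.532 and 3.39 FPKM, with HO highest. Pdk4, which spares glucose during fasting, had 52.7 FPKM in WT, 297 in HE and 133 in HO, and Ucp3, the uncoupling protein of muscle, 2.24 FPKM in WT, 18.4 in HE and 7.48 in HO, both highest in HE. Cd36, a fatty acid transporter, had 84.1 FPKM in WT, 217 in HE and 175 in HO.

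Wnt1 and Wnt5b encode ligands and had 3.55, 0.944 and 1.15 FPKM and 19.8, 8.09 and 8.31 FPKM in WT, HE and HO. Notum, a secreted enzyme that inactivates Wnt ligands, had 3.47, 0.914 and 1.16 FPKM. Bambi, a decoy receptor of TGF-beta signalling, had 19.8, 7.49 and 9.25 FPKM, and the homeobox genes Pitx1 and Dlx3 had 13.5, 6.19 and 5.58 FPKM and 15.7, 4.74 and 6.41 FPKM. Wnt16 was not called, with 3.39, 1.65 and 3.02 FPKM. Cebpd, Gadd45g and Cdkn1a had 29.8, 19.7 and 11.8 FPKM, 35.9, 24.1 and 12.5 FPKM and 59.0, 49.1 and 28.0 FPKM, each with HE between WT and HO. Of 3 genes known to respond to glucocorticoids, Tsc22d3 had 153, 87.3 and 91.6 FPKM, Fkbp5 12.3, 11.996 and 9.90 FPKM and Zbtb16 12.2, 14.6 and 11.4 FPKM. The collagen genes Col16a1 and Col8a2 had 72.7, 24.3 and 28.3 FPKM and 29.7, 15.1 and 12.7 FPKM.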
